A study of Mus musculus with 9 samples.

Results

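Foxa2, Foxa3, Barx2, Dlx5, Dlx6, Nfatc2 and Nfatc1 are 7 of the 19057 genes with a named probe on the array, and they were read from all 21 probes annotated to these symbols. They encode transcription factors known from cartilage cells outside the Sox family. They were chosen by their normalized levels in all 3 comparisons of these tissues, which were already known, so their values and differences are given as a description and no p-value is attached to them. The samples were 3 hindlimb tissues from CD-1 mouse embryos of embryonic day 16, with 3 Illumina bead arrays each. These were the meniscus (a fibrous cartilage pad in the knee), the articular cartilage that lines the joint surface and the cruciate ligament. No allele, agent or treatment is named in the labels, which also do not say how many embryos gave each sample or whether replicates came from separate animals. Any error given here therefore covers the spread between these arrays, which may be technical.

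Forkhead, homeobox and NFAT proteins bind DNA and switch genes on or off. In the mouse growth plate, Foxa2 and Foxa3 are known to act together as cartilage cells enlarge and mature. Dlx5 and Dlx6 are distal-less homeobox factors that promote the maturation of cartilage and bone cells, and Barx2 is a homeobox factor of the Bar family expressed in early limb cartilage and joints. NFAT proteins wait in the cytoplasm until calcium activates the phosphatase calcineurin, which lets them enter the nucleus. Nfatc1 is best known as the main factor of osteoclast formation, and loss of Nfatc2 in the mouse is known to disturb adult articular cartilage.

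Levels are normalized log2 intensities, corrected for the background of each array. A probe was called above background on an array when its detection p, the share of negative control probes that were brighter, was below 0.01. On the ligament arrays the median scanner signal was 147.4 to 209.7, against 93.4 to 103.8 on the meniscus and cartilage arrays, and at most 20.9% of probes were above background, against 28.9% to 35.6%. The median spread of a named gene within a tissue was 0.50 (SD, n = 3 arrays) in ligament, 0.25 in meniscus and 0.26 in cartilage. Cartilage defining genes matched the cartilage label, with a summed level of 7 genes between 71.0 and 74.7 there, between 56.8 and 60.4 in meniscus and between 52.2 and 61.0 in ligament. Of 8 tendon and ligament genes 6 could be tested, with a sum of 55.9 to 56.3 in ligament, 50.8 to 53.5 in meniscus and 47.6 to 50.1 in cartilage. Not every gene followed the sum. Tnc had its lowest mean, 10.23, on the ligament arrays, below cartilage (10.78) and meniscus (11.18). Limma called 5 of the 6 higher in ligament than in cartilage. Between ligament and meniscus it called 3 higher in ligament and Tnc higher in meniscus. Scx could not be tested. Of this list, Tnmd was not above background on any array.

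Of the 21 probes, 12 were above background on at least 1 array, and 8 probes of 5 members passed the detection filter, which asks for a signal above background on all 3 arrays of at least 1 tissue. Foxa2 and Dlx6 did not pass and were not above background on any of the 9 arrays. Foxa3 passed through cartilage alone, as did 645 of the 7234 named genes tested, and Nfatc2 through ligament alone, as did 30. Passing in this way favours a higher level in that tissue, so such a level was partly set by the filter. It does not force one, because the lowest level that counted as above background differed between arrays. It was 4.93 to 5.19 in meniscus and cartilage and 5.76 to 6.06 in ligament. The probes read for Barx2, Dlx5 and Nfatc1 passed through both meniscus and cartilage. Where a gene had several passing probes, the one with the highest mean was used.

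The promoters of 2 members are shown because these members lie at the opposite ends of the tissue differences, Foxa3 towards cartilage and Nfatc2, by its passing probe, towards ligament. Each sequence is the 250 bases before an annotated start, 5′ to 3′ on the gene's strand (minus for both genes), from RefSeq, build GRCm38.p6. Capitals mark matches on either strand to 5 motifs: the core promoter box TATAAA, the Sox factor letters ACAANG, the forkhead letters TGTTTNC, the NFAT letters GGAAAA and the homeobox letters TAATTA.
Foxa3, chr7:19023540-19023789: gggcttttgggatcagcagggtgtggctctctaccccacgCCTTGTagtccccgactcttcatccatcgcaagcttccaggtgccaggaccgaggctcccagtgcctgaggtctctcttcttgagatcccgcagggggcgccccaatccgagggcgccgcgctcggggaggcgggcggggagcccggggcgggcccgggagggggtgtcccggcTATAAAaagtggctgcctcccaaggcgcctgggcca
Nfatc2 start 1, chr2:168601658-168601907: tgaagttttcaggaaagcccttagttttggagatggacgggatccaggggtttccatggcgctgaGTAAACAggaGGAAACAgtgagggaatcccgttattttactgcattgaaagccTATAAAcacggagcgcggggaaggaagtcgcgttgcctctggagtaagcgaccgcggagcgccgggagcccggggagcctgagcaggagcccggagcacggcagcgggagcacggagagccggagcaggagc
Nfatc2 start 2, chr2:168590366-168590615: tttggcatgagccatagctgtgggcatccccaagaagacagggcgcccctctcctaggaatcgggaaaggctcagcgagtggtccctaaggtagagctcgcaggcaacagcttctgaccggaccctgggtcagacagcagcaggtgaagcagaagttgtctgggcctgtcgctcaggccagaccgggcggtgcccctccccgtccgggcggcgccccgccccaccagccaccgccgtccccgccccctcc
The Foxa3 window holds 1 TATA box match, whose first base lies 36 bases before the start, and 1 match to the Sox letters. Of 32851 promoter windows of the same length, 12.4% hold TATAAA and 36.3% hold ACAANG. The first Nfatc2 window holds 2 forkhead matches and 1 TATA box match, 132 bases before the start, and 17.8% of all windows hold TGTTTNC. In the second Nfatc2 window 0 of the 5 motifs were found. GGAAAA is in 20.4% and TAATTA in 4.84% of all windows. These are matches of letters in a window, with no measure of binding. Promoters were matched for 3 members, with Foxa2 the third.

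Foxa3 was the member with the largest differences between tissues. Its probe stood at 8.95, 9.35 and 8.26 on the cartilage arrays, a mean of 8.86 ± 0.55 (SD, n = 3). The meniscus arrays gave 4.69, 4.44 and 4.85, and the ligament arrays 4.74, 4.47 and 6.34. All cartilage values lay above every value of the other tissues. No meniscus array had the probe above background, so the meniscus level is only a bound. Under the background correction used, Foxa3 was lower there by at least 13.5-fold, or 3.75 log2 units. This bound depends on the correction. The fitted difference was -3.07 with an offset of 50 and -2.24 without correction, both smaller than the bound. In ligament it was above background on replicate 3 alone, with a detection p of 0.00427, and the mean difference from cartilage was -3.44 ± 0.48 (log2, SE) relative to the median gene, whose shift is given with the comparisons. The meniscus and ligament values of Foxa3 overlapped.

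Ligament replicate 3, the array with the Foxa3 signal, also had the highest mean level of the 7 cartilage defining genes among the ligament arrays, 8.71 against 7.87 and 7.46. The part of these genes in that signal was not tested. The other two ligament arrays did not have Foxa3 above background, so without this array the ligament level is only a bound. On the scale of the scanner the cartilage signals of Foxa3 were 518.4, 829.2 and 439.0, those of meniscus were 98.3, 94.3 and 96.5, and those of ligament were 149.7, 140.4 and 293.1. In bulk tissue, fewer cells that express a gene and less RNA of it per cell cannot be told apart.

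**Figure D1:**
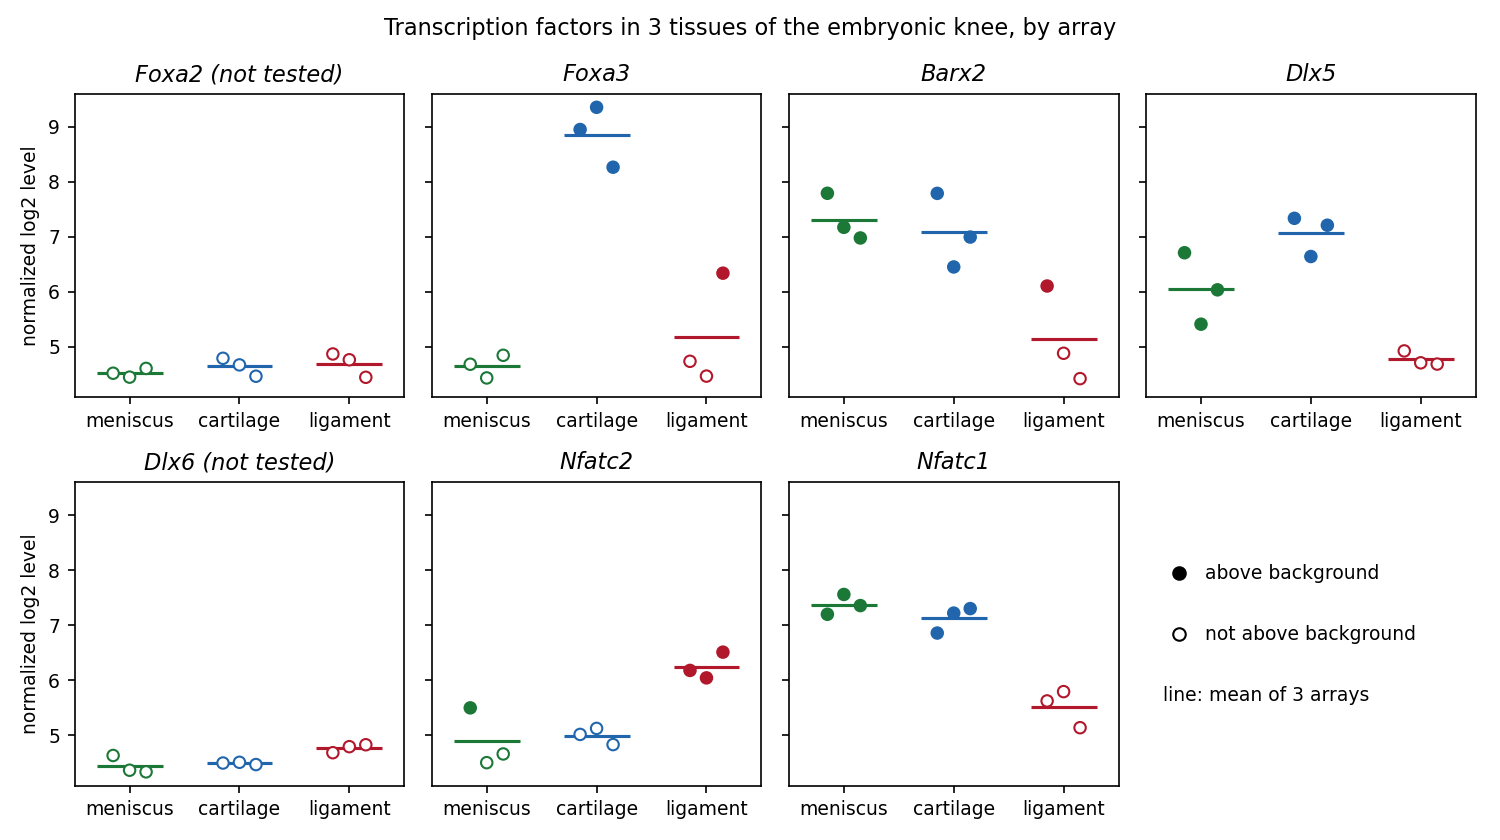
Normalized log2 level (y axis) of the 7 transcription factors in meniscus, articular cartilage and cruciate ligament (x axis), 1 circle per array and a line at the mean of 3 arrays, with filled circles above background. Foxa3 lies high on the cartilage arrays alone, Nfatc2 on the ligament arrays, and Foxa2 and Dlx6 have open circles throughout (the brighter of both Foxa2 probes is drawn).

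Foxa2, the partner of Foxa3 in the growth plate, has 2 probes. Their means lay between 4.44 and 4.65 in meniscus and cartilage and at 4.70 and 4.73 in ligament, and the lowest detection p on any array was 0.126. No difference in Foxa2 was detectable between the tissues. The 3 named genes whose pattern was nearest to that of Foxa3 over the 9 arrays were Cytl1, a secreted cartilage protein, Ucma, a cartilage matrix protein first described in the upper growth plate, and Comp, a cartilage matrix glycoprotein. Their root mean square distance from Foxa3, after each gene's own mean was taken off, was 0.485, 0.504 and 0.675 log2 units, against a median of 1.97 over 7233 named genes. Ucma had a cartilage level of 8.90 ± 0.87, against 5.11 ± 0.74 in meniscus and 5.71 ± 1.41 in ligament (SD, n = 3), and Cytl1 at 8.71 ± 0.70, 5.18 ± 0.41 and 5.05 ± 0.89. These distances describe 9 arrays that share 3 tissues.

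**Figure D2:**
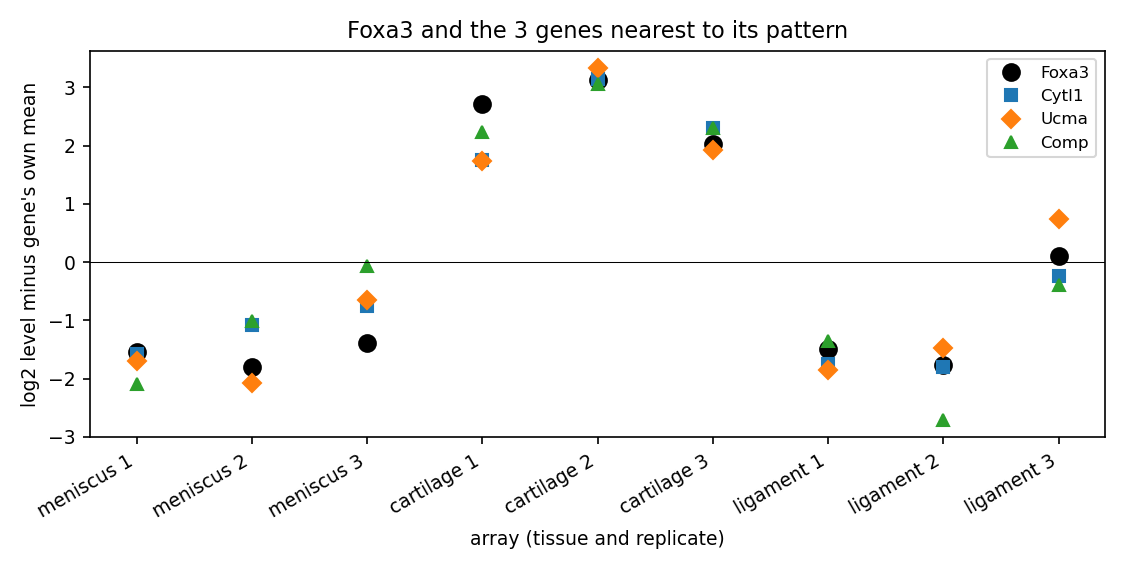
Log2 level minus each gene's own mean over 9 arrays (y axis) for Foxa3, Cytl1, Ucma and Comp on each array (x axis). The 4 genes lie highest on the 3 cartilage arrays, and on ligament replicate 3 Foxa3 and Ucma lie above their own means.

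Dlx5 was highest in cartilage, lower in meniscus and at background in ligament. Its passing probe stood at 7.34, 6.64 and 7.21 in cartilage, 6.71, 5.41 and 6.04 in meniscus, and 4.93, 4.71 and 4.69 in ligament. The cartilage and meniscus values overlapped through meniscus replicate 1, while every ligament value lay below both other tissues. The mean difference between meniscus and cartilage was -1.01 ± 0.34 (log2, SE). No ligament array had the probe above background, so the ligament level is a bound. Relative to the median gene, it was below the cartilage level by at least 1.91-fold, and no fold can be given against meniscus.

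The second probe of Dlx5, annotated to the same transcript, was not above background on any array, with means of 4.63, 4.51 and 4.76 in meniscus, cartilage and ligament. The Dlx5 pattern therefore rests on 1 probe. Dlx6 is the next protein-coding gene to Dlx5 in the RefSeq gene table and has 1 probe. Dlx6 was at 4.45 ± 0.16 in meniscus, 4.49 ± 0.02 in cartilage and 4.77 ± 0.08 in ligament (SD, n = 3), with a lowest detection p of 0.201. The pair could thus be followed through Dlx5 alone. The named genes nearest to the pattern of Dlx5 were Adgrg6, an adhesion G protein-coupled receptor, Spint2, a serine protease inhibitor, and Krt17, a keratin, at 0.266, 0.281 and 0.333 log2 units against a median of 1.02. Since a keratin is among them, markers of epithelium were read too. Of 10, 9 had a probe and 0 passed the detection filter. Above background on at least 1 array were 2 in meniscus, 2 in cartilage and 1 in ligament. No signal above background was found on any array for Krt5, Krt14, Krt15, Epcam, Dsp and Trp63. The listed gene without a probe is among these, so its absence was not measured.

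Barx2 stood at like levels in meniscus and cartilage and lower in ligament. Its passing probe was at 7.79, 7.17 and 6.98 in meniscus, at 7.79, 6.45 and 6.996 in cartilage and at 6.11, 4.89 and 4.42 in ligament. Meniscus and cartilage overlapped throughout, with a mean difference of 0.24 ± 0.48 (log2, SE), which does not show that they are alike. Every ligament value lay below both other tissues, and the probe was above background on ligament replicate 1 alone. Relative to the median gene, meniscus minus ligament was 1.91 ± 0.48 and ligament minus cartilage was -1.71 ± 0.48. On ligament replicates 2 and 3 the lowest level that counted as above background was 5.86 and 6.06, over the Barx2 values there. Both differences are therefore fitted values and not measured differences.

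The second probe of Barx2 was above background on cartilage replicate 3 alone and stood at 4.44, 4.69 and 4.62 in meniscus, cartilage and ligament on average. The Barx2 pattern therefore rests on 1 probe. The nearest named genes to the pattern of Barx2 were Pank2, a pantothenate kinase, Tstd2 and Mkln1, encoding muskelin, at 0.377, 0.381 and 0.398 log2 units against a median of 1.11. All 3 had like means in meniscus and cartilage and lower ones in ligament, such as 7.37, 7.26 and 5.23 for Pank2.

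Nfatc1 was read by 6 probes, of which 4 passed and had their highest mean in meniscus. The brightest probe stood at 7.20, 7.56 and 7.36 in meniscus, 6.86, 7.22 and 7.30 in cartilage, and 5.63, 5.80 and 5.14 in ligament. Meniscus and cartilage overlapped, with a mean difference of 0.24 ± 0.24 (log2, SE). All ligament values lay below those of both other tissues. The ligament detection p was 0.0224, 0.0128 and 0.107, all over the threshold. As a bound, and relative to the median gene, Nfatc1 was at least 2.32-fold higher in meniscus and at least 2.003-fold higher in cartilage than in ligament.

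The other 3 passing probes of Nfatc1 were dimmer and were also above background on 0 ligament arrays. Relative to the median gene, 1 of them was at least 1.17-fold higher in meniscus than in ligament, and for the other two the bound was under 1, so no fold is given. Against cartilage the bound was under 1 for all 3, and their ligament values overlapped those of cartilage. Meniscus minus cartilage was 0.33, 0.20 and 0.48. The 6 probes are annotated to 2 RefSeq transcripts, and the 3 probes of one transcript all passed, against 1 of the 3 probes of the other. The remaining 2 probes were not above background on any array.

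Nfatc1 also marks osteoclasts, so its level was set beside the markers of macrophages and osteoclasts. Of 14 such genes 13 had a probe and 4 could be tested. Their summed level was 25.7 to 32.0 in meniscus, 20.4 to 22.1 in cartilage and 21.9 to 32.5 in ligament. No signal above background was found on any array for the osteoclast enzymes Ctsk and Acp5. The listed gene without a probe is among Cd68, C1qa, Fcer1g, Ctsk and Acp5, so it could be either of these enzymes. The 4 genes in the sum, Adgre1, Lyz2, Tyrobp and Mrc1, mark macrophages and myeloid cells, so the sum holds no osteoclast gene. The part of such cells in the Nfatc1 level was not tested. The nearest named genes to the pattern of Nfatc1 were Gnai3, a G protein subunit, Rpl30, a ribosomal protein, and Stc1, the secreted hormone stanniocalcin, at 0.185, 0.216 and 0.220 log2 units against a median of 0.855.

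Nfatc2 was the only one of the 5 tested members whose mean was highest in ligament, and this rests on 1 of its 7 probes. The passing probe stood at 6.18, 6.05 and 6.51 in ligament, 5.50, 4.51 and 4.66 in meniscus, and 5.02, 5.13 and 4.83 in cartilage. All ligament values lay above the others, and this probe was above background on 1 meniscus array and on 0 cartilage arrays. Meniscus and cartilage overlapped near background, and no difference between them is given. Cartilage lay below ligament by at least 2.66-fold relative to the median gene.

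The other 6 probes of Nfatc2 did not pass the filter. Of these, 3 were above background on some arrays, each on 2 of 3 cartilage arrays and 1 meniscus array, and they were annotated to RefSeq transcripts, whereas the passing probe was annotated to a GenBank record. Their cartilage means of 5.48, 5.21 and 5.20 lay under the lowest level that counted as above background on the ligament arrays, 5.76 to 6.06. These probes therefore could not show a ligament level below that of cartilage, but could show one above these limits. Of the 3, the probe with the cartilage mean of 5.48 was above background on ligament replicate 1, and the others on 0 ligament arrays. The remaining 3 probes were not above background on any array. Without cartilage replicate 1 the probe with the cartilage mean of 5.48 passed the filter and was brighter, and ligament minus cartilage was then -0.52, read from that probe. The nearest named genes to the passing probe were Syngr4, a synaptogyrin, Dsel, an epimerase of dermatan sulphate, and Mia3, which exports collagen from the endoplasmic reticulum, at 0.224, 0.236 and 0.252 log2 units against a median of 0.912.

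**Figure D3:**
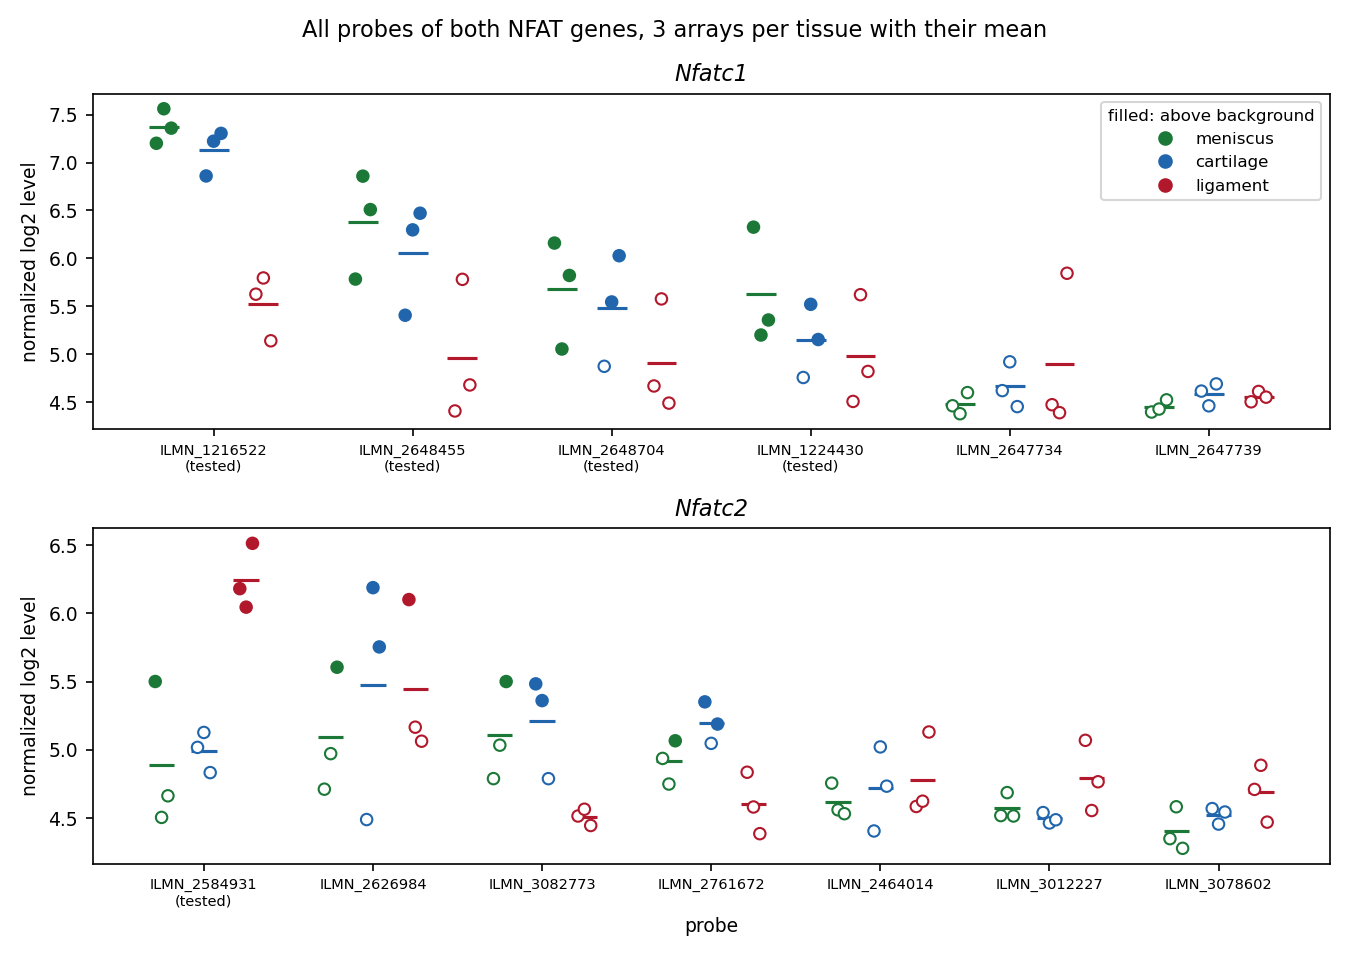
Normalized log2 level (y axis) of the 6 probes of Nfatc1 and the 7 probes of Nfatc2 (x axis), with 3 arrays per tissue, a line at their mean and filled circles above background. The 4 tested Nfatc1 probes lie lowest in ligament on average, while the tested Nfatc2 probe lies highest in ligament and the next 3 do not.

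Over all 5 tested members, limma called 1 as lower in meniscus than in cartilage, Foxa3, where 0.346% of named genes were called lower and 0.415% higher. Between meniscus and ligament it called Barx2, Dlx5 and Nfatc1 as higher in meniscus, where 9.32% of genes were, and Nfatc2 as lower, where 2.63% were. Between ligament and cartilage it called Foxa3, Barx2, Dlx5 and Nfatc1 as lower in ligament, where 11.3% were, and Nfatc2 as higher, where 3.84% were. Members whose values did not overlap between the tissues numbered 1, 4 and 5 of 5 in the same order, against 26%, 31.6% and 33.6% of named genes. Without normalization between arrays, 91 named genes were called higher and 465 lower in meniscus than in ligament, and with cyclic loess 341 and 248, against 674 and 190. For ligament against cartilage the counts were 243 and 342 without normalization and 404 and 481 with cyclic loess, against 278 and 820. For meniscus against cartilage they were 11 and 69 without normalization, against 30 and 25. The counts of members used the values by which the members were chosen, and nothing is read from them. The 3 comparisons share arrays. Meniscus minus ligament had a median of 0.27 (log2) over named genes and ligament minus cartilage one of -0.23, which cyclic loess brought to 0.06 and -0.04.

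**Figure D4:**
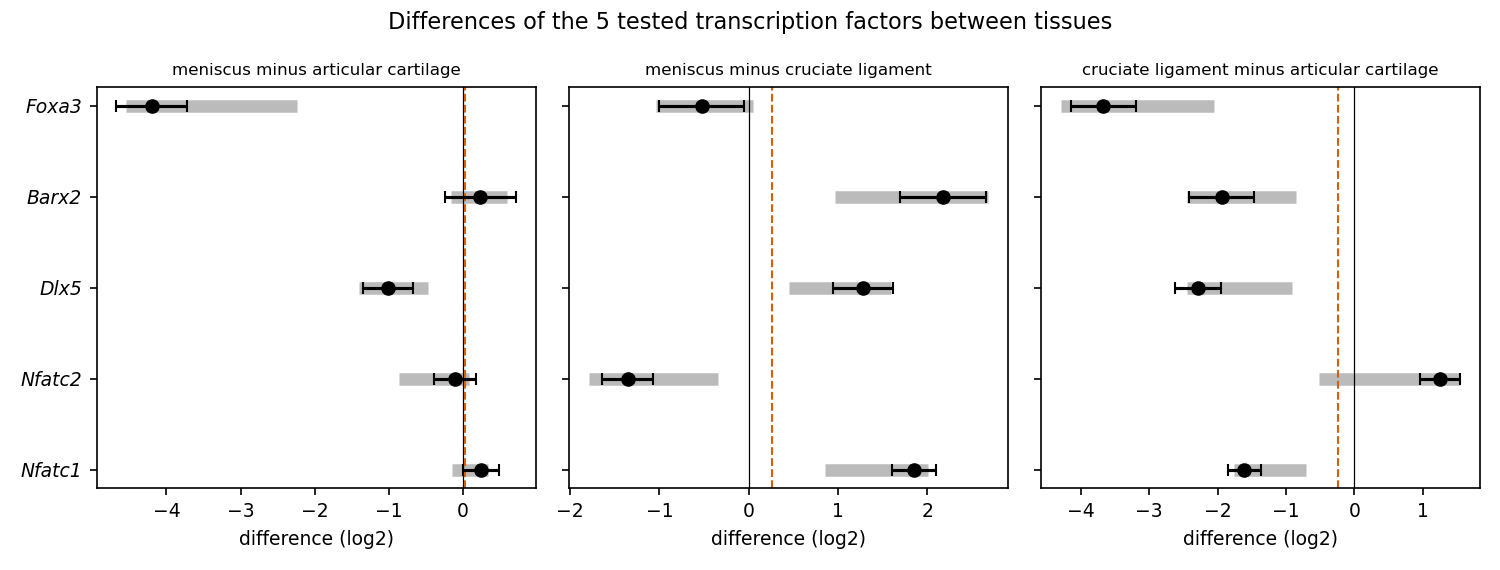
Difference in log2 level between tissues (x axis) for the 5 tested transcription factors (y axis), as points with their SE (limma, 3 arrays per tissue). Grey bars span the values under the alternative settings and arrays left out, the dashed line is the median named gene, and the bar of Nfatc2 between ligament and cartilage crosses 0, where another probe was read. Points of Foxa3, Barx2, Dlx5, Nfatc1 and Nfatc2 against a tissue at background on some or all of its arrays are fitted values and not measured differences.

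The scanner signals before correction and normalization separated ligament from cartilage for Foxa3, but overlapped between them for Barx2, Dlx5 and Nfatc1. The signals of Nfatc1 were 175.0, 203.6 and 237.0 in ligament, 187.0, 250.9 and 204.2 in meniscus, and 180.8, 259.5 and 265.1 in cartilage. These overlap between all 3 tissues, while the ligament signals stood nearer to their arrays' medians of 147.4, 159.6 and 209.7. For Dlx5 the ligament signals of 156.3, 161.2 and 209.8 were close to these medians. For Barx2 they were 194.1, 170.6 and 172.7, the last of them under its array's median. When the uncorrected signals were normalized between arrays, meniscus minus ligament was 0.97 (log2) for Barx2, against 2.18 with the correction, neither relative to the median gene. Of 5853 named genes above background on all meniscus and cartilage arrays, 9.17% were not above background on any ligament array, as Dlx5 and Nfatc1 were, and 58.1% were on all 3.

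**Figure D5:**
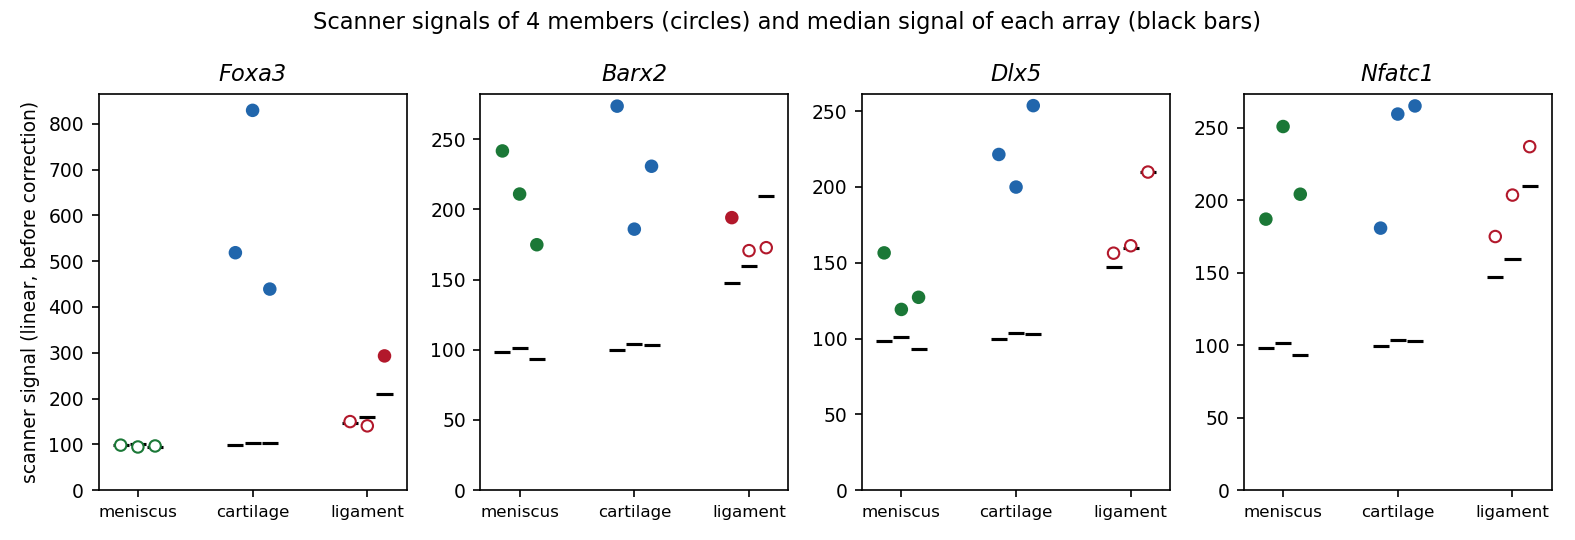
Scanner signal on a linear scale before correction (y axis) of Foxa3, Barx2, Dlx5 and Nfatc1 by tissue (x axis), 1 circle per array, filled where above background, with black bars at the median signal of each array. The ligament circles of Dlx5 lie close to the medians of their arrays, between 147.4 and 209.7.

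The relatives of these factors were read from lists. All p-values for these genes are from limma with Benjamini-Hochberg adjustment over all 9166 features. With any 1 meniscus or cartilage array left out, 0 to 13 named genes in all were called between these tissues, against 55 with every array. With 1 ligament array left out, 57 to 123 were called. Calls of this comparison therefore depend on each of its own arrays, and their number also on the ligament arrays. Of 23 other forkhead factors 8 could be tested, and Foxa1, a relative of Foxa2 and Foxa3, was not among them. Foxp1, a forkhead repressor, was higher in meniscus than in cartilage by 1.54 ± 0.27 (log2, SE, adjusted p = 0.0445), and than in ligament by 0.92 relative to the median gene (adjusted p = 0.0225). The call against ligament was lost without any 1 meniscus array and without normalization between arrays. The call against cartilage was lost without any 1 meniscus or cartilage array and without ligament replicate 2. It was also lost with no filter, without normalization between arrays and with replicate number as a block. Between ligament and cartilage, Foxn3 was higher in ligament by 1.45 and the mesenchymal factors Foxc2 and Foxd1 were lower by at least 1.05-fold and 1.002-fold, relative to the median gene, since neither was above background on a ligament array (adjusted p = 0.0188, 0.0191 and 0.00938). The median difference of the list was 0.08, 0.19 and -0.18 in the 3 comparisons, against 0.03, 0.27 and -0.23 for all named genes.

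Of 21 other homeobox factors of the Dlx, Barx and Msx families and of limb patterning, 18 had a probe and 7 could be tested, with medians of 0.16, 0.18 and -0.51. Limma called 0 between meniscus and cartilage, with 2 at an unadjusted p under 0.05. Dlx3, a relative of Dlx5, had a meniscus level of 6.77 and a cartilage level of 6.31. It was above background on 0 ligament arrays. Relative to the median gene, it was at least 1.52-fold and 1.13-fold higher than in ligament (adjusted p = 0.0102 and 0.0209). Relative to cartilage, Shox2, a homeobox factor of limb growth, was lower in ligament, with a log2 difference of -1.29, and Prrx1, a factor of early limb mesenchyme, was higher by 1.30 (adjusted p = 0.0408 and 0.0431). A fit of ligament and cartilage without meniscus kept 0 of these 3 calls.

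Of 21 genes around NFAT, from its relatives to calcineurin, its inhibitors and the kinases that return NFAT to the cytoplasm, 16 could be tested, with medians of 0.16, 0.30 and -0.08. Limma called 0 between meniscus and cartilage, with 2 at an unadjusted p under 0.05. Nfat5, the salt-responsive relative, and Gsk3b, a kinase that phosphorylates NFAT, were higher in meniscus than in ligament by 0.48 and 1.05 relative to the median gene (adjusted p = 0.0456 and 0.0231). A fit of these tissues without cartilage kept 0 of these calls. Akap5, which anchors calcineurin at the membrane, was higher in ligament than in cartilage by 3.47 ± 0.42 (adjusted p = 0.00262), at 9.23 against 5.99. Orai1, the calcium channel that feeds this pathway, was called lower in ligament (adjusted p = 0.0465), where it was not above background on any array, and has no fold.

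Of 17 genes of cartilage maturation, 4 could be tested. Runx2, Sp7, Ihh, Col10a1 and Mmp13, the core genes of the enlarging growth plate cell, were not among them. Gli1, a target of hedgehog signalling, was lower in meniscus than in cartilage, with a log2 difference of -2.07 ± 0.28 (SE, adjusted p = 0.0217) and at least 2.75-fold lower in ligament (adjusted p = 0.00315), and Ptch1, the hedgehog receptor, was lower in ligament, with a log2 difference of -1.62 (adjusted p = 0.0444). The list medians were -1.07, 0.29 and -1.25. Of 21 cartilage matrix genes 19 could be tested. Limma called 8 as lower in meniscus than in cartilage and 16 as lower in ligament than in cartilage, with Comp and Cytl1, both among the nearest to Foxa3, in each set. The list medians were -2.58 and -2.91. The 8 fell to 0 to 2 with 1 meniscus or cartilage array left out and to 4 with the replicate block. With the authors' values it rose to 17. Between meniscus and ligament the median was 0.13, and Scrg1 was called higher in meniscus. The Sox genes were all tested, and limma called Sox9 and Sox5 as lower in ligament than in both other tissues and 0 of the 3 between meniscus and cartilage, where 3 had an unadjusted p under 0.05. Between meniscus and ligament, 1 Sox gene was called without any 1 meniscus array, with the replicate block or in a fit without cartilage, and 0 without normalization between arrays. Between meniscus and cartilage, 3 were called lower in meniscus with the authors' values. Without normalization between arrays, without ligament replicate 3, in a fit without ligament or with the ligament arrays left out altogether, 1 was called lower.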

How the data were processed

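RNA of 9 samples was amplified with the Ovation Pico system and labelled with biotin, per the labels' protocols. The authors deposited a scanner signal intensity and a detection p-value per probe and array, with GenomeStudio named, without a version, in the submitters' processing notes. The authors also deposited processed intensity values, with medians of 99.9 to 100.0 on meniscus and cartilage arrays and 172.2 to 172.3 on ligament arrays, on a linear scale and with the normalization not given, so they were compared only between meniscus and cartilage.

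Scanner rows carry no gene names, so each of the 45281 rows was paired with a value table row by its ranks on 9 arrays (median largest rank difference 96.0, second nearest row 4549.5), and probes were named through the platform annotation (34885 with 1 symbol, 18 with several, 10378 with none). Gene IDs of 34807 probes were found in the RefSeq table of GRCm38.p6, used for names and gene order. Signals were processed with neqc of limma 3.58.1 (R 4.3.3; offset 16, negative controls inferred from detection p), quantile normalized and put on the log2 scale. Probes with a detection p below 0.01 on all 3 arrays of a tissue were kept, 12538 in all, giving 9166 features with the brightest probe per gene, 7234 of them named. Group means were fitted with lmFit and eBayes over all 9 arrays, which share 1 estimate of the spread, and a call needed an adjusted p (Benjamini-Hochberg) under 0.05. The script was tested on simulated data. Where a probe was not above background on any array of a tissue, the fold is a bound, with each dim array at the higher of its lowest detected signal and the probe's own value. Each bound holds for the background correction and offset used here. Ligament differences have the median named gene subtracted unless stated otherwise.

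Named genes are the 7 members with every probe, the 3 genes nearest to each tested member, and up to 3 called genes per list and comparison. The members and lists were chosen with earlier results of these data known. Same-numbered arrays deviated together weakly at most, with correlations of 0.02 to 0.15 between meniscus and cartilage and -0.03 to 0.01 in the ligament comparisons. The numbers were therefore not taken as pairs, although meniscus replicates 1 and 2 each deviated most like the same-numbered cartilage array. Slides are not named in the headers, so no slide block was fitted. The number of arrays limits the precision of every value.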

Additional observations from a re-analysis of the deposited data

How the results depend on the processing

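Of 263 comparisons of a member's difference with its main value, 230 stayed within 1 SD between arrays, 32 moved by more and 1 reversed: Nfatc2 between ligament and cartilage was -0.52 without cartilage replicate 1, where another probe was read, and up to 1.38 with another array left out. With no background correction or an offset of 50, differences were smaller (Foxa3 between meniscus and cartilage was -2.24 and -3.07, against -4.20). The call of Dlx5 between meniscus and ligament held in 4 of 17 alternatives, and that of Foxa3 between meniscus and cartilage in 14 of 19. Barx2 was called against ligament in 13 of 17 alternatives for meniscus and 11 of 17 for cartilage. Nfatc1 was called in 17 of 17 for each, always read from its brightest probe. With every kept probe as a feature, the other passing probes of Nfatc1 were not called in either ligament comparison.

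The count of named genes called between meniscus and cartilage, 55, was 332 with the authors' values, 258 with these 6 arrays alone or only both tissues in the fit, 116 without background correction, 102 with an offset of 50, 23 with no filter, 13 with the replicate block, and 0 to 123 with 1 array left out. Between meniscus and ligament, 864 became 556 without normalization between arrays, 363 with only both tissues in the fit, 509 for probes detected on all 9 arrays, and 278 to 1203 with 1 array left out. Between ligament and cartilage, 1098 became 585, 491 and 617 under the same settings and 418 to 1343 with 1 array left out. The number of members called was 0 in each comparison for probes detected on all 9 arrays, since no member passes that filter. Between meniscus and cartilage it was 0 or 1 with 1 array left out, with 0 without any of the meniscus arrays or cartilage replicates 1 or 2. Between meniscus and ligament it was 2 with no filter or only both tissues in the fit, and 1 to 4 with 1 array left out. Between ligament and cartilage it was 3 to 5 with 1 array left out. The replicate block changed the call of 0 members. Every ligament level near the background of its array is limited by signal over background.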

Other observations

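In the authors' processed intensity values, which are comparable between meniscus and cartilage, Foxa3 stood at 99.9, 92.6 and 104.1 on the meniscus arrays and at 549.5, 702.7 and 374.6 on the cartilage arrays. Dlx5 stood at 183.6, 121.1 and 145.8 against 238.5, 179.0 and 225.5, and its values of both tissues overlapped there too. The brightest Nfatc1 probe stood at 224.4, 264.8 and 241.1 against 194.6, 226.7 and 235.1. Barx2 stood at 294.6, 221.7 and 204.3 against 294.4, 167.1 and 205.7. The log2 differences between meniscus and cartilage in these values were -2.41 for Foxa3, -0.52 for Dlx5, 0.16 for Nfatc1 and 0.13 for Barx2.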
